A study of Mus musculus with 15 samples.

Results

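The oncofetal RNA-binding and chromatin genes described here are 7 genes of 3 families, chosen by symbol from the 39331 genes of the count table. They are Igf2bp1, Igf2bp2 and Igf2bp3, Hmga1 and Hmga2, and Lin28a and Lin28b. All 7 have a row in the table. Of the 16437 genes that passed the filter on low counts, 6 are members, and each of the 6 lay at or above the filter's level of 0.392 CPM (the count scaled to library size) in every library. Lin28a did not pass and was not tested.

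Polyadenylated RNA of the left ventricle was sequenced in 15 libraries from C57BL/6 mice that had undergone experimental myocardial infarction. The groups were adult hearts with transferred adult T cells (AH_T, n = 4, numbers 1 to 4), adult control hearts (AH_C, n = 3, numbers 5 to 7), neonatal hearts with transferred adult T cells (NH_T, n = 4, numbers 1, 2, 4 and 5) and neonatal control hearts (NH_C, n = 4, numbers 6 to 9). All hearts, controls included, carried an infarct, and no uninfarcted heart was measured in these libraries. The protocol names neonatal hearts and a time of 36 h after infarction, in wording that leaves unclear whether tissue was taken or T cells were given at that time, and the time for the adult hearts is not stated. Ages in days, the dose of T cells, infarct size, pooling of hearts and sequencing batches are not stated either. Nothing says whether libraries came from separate animals, so p-values measure the spread between these libraries, which may be technical.

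The IGF2BP proteins bind messenger RNAs in the cytoplasm and protect or localise them, and they recognise N6-methyladenosine (m6A) marks. HMGA proteins bind AT-rich DNA in the minor groove and bend it, which alters access to chromatin. LIN28 proteins bind precursors of the let-7 microRNAs and block their maturation, and mature let-7 in turn represses transcripts such as Hmga2, Igf2bp1 and Lin28b. Most of these genes are abundant in embryonic tissue, decline after birth and reappear in tumours, which is why they are called oncofetal. Igf2bp2 and Hmga1 are known for broader expression in adult tissues.

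The let-7 link can be read in sequence, so the microRNAs and their matches are shown first. All 9 mature let-7 family sequences of the RefSeq table (let-7a to let-7g, let-7i and miR-98; GRCm38.p6) carry the same seed, bases 2 to 8, in capitals here. The 3 shown differ outside the seed.
let-7a-5p: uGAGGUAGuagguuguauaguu
let-7d-5p: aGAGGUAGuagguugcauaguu
miR-98-5p: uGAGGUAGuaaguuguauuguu

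Sense-strand matches to this seed, the letters CTACCTC, were searched in the longest annotated 3′ UTR of each gene (GENCODE M21, GRCm38). They are shown because every member had at least 1. Capitals mark the match, together with the base after it where that is an A, which makes an 8-base match. Each line gives the first match after the stop codon, read 5′ to 3′ on the transcript strand, which is the minus strand for all but Hmga1.
Igf2bp1, chr11:95961778-95961800: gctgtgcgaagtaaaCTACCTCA
Igf2bp2, chr16:22059473-22059495: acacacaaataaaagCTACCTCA
Igf2bp3, chr6:49086787-49086809: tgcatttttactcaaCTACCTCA
Hmga1, chr17:27563277-27563299: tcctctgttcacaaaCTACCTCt
Hmga2, chr10:120364224-120364246: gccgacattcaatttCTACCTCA
Lin28a, chr4:134005189-134005211: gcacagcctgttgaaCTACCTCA
Lin28b, chr10:45381022-45381044: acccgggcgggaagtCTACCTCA

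Igf2bp1, Hmga2 and Lin28b had 4 matches each, Lin28a had 2, and Igf2bp2, Igf2bp3 and Hmga1 had 1 each. Of the matches in Igf2bp1, 3 extended to 8 bases. Both matches of Lin28a and the only ones of Igf2bp2 and Igf2bp3 were also 8 bases long. Hmga2 and Lin28b each had 1 of 8 bases, and Hmga1 had none. At least 1 match of 7 bases was present in 10.4% of 14133 tested genes with an annotated 3′ UTR, and in 16.8% of the 7021 whose 3′ UTR was at least as long as that of Hmga1, the shortest among the members at 1183 bases. Among 21 other genes known as let-7 targets, 13 had a match. Several members are on record as let-7 targets, so their matches are a description of known targets and not independent evidence. A match is not a proven site, and mature let-7 was not measured in these polyadenylated libraries.

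**Figure D1:**
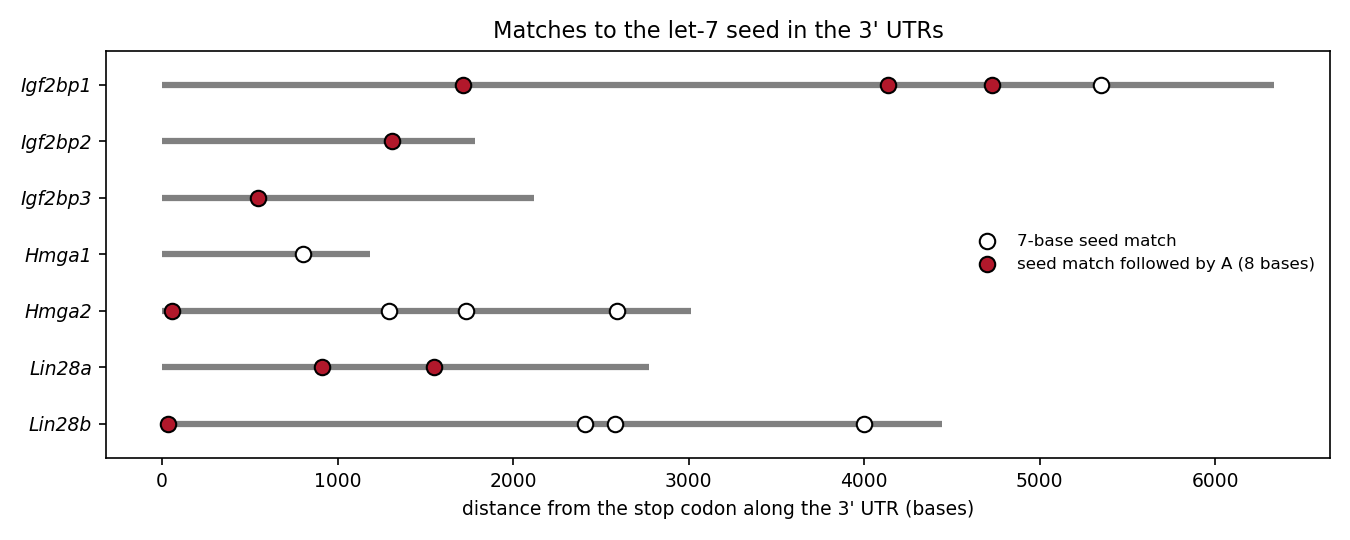
Position of matches to the let-7 seed along the 3′ UTR of each member, in bases from the stop codon. Grey bars show the length of the UTR, open circles 7-base matches and filled circles matches of 8 bases. Igf2bp1, with the longest UTR at 6337 bases, and Hmga2 and Lin28b carry 4 matches each, and the first match of Hmga2 and of Lin28b lies within 58 and 36 bases of the stop codon.

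Depth was 21871617 to 34302786 counts per library, and 3 counts, taken as the floor for detection, equalled 0.0814 to 0.147 CPM. Levels below are CPM with TMM scaling (trimmed mean of M values), which aligns libraries of different composition. Errors are SDs between libraries. Fold changes are log2 values ± standard error from 1 edgeR quasi-likelihood fit over all 15 libraries, and each adjusted p is a Benjamini-Hochberg value over 16437 genes, called at 0.05. Neonatal control 8 stood apart: on the first principal component of the 8 neonatal libraries it scored 52.97, and the others -21.1 to 9.60. It was the lowest neonatal library for Igf2bp2, Igf2bp3 and Hmga2, and each member's value in controls is also given without it. Cardiomyocyte markers (Tnnt2, Myh6, Actn2, Ttn, Ryr2) were abundant in every library, as the tissue label requires, and liver, lung and thymocyte markers each averaged under 1 CPM in every group.

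Per kilobase of longest transcript, Hmga1 was the most abundant member in all 4 groups and Lin28a the least. Hmga1 stood at 35.0 ± 1.36 CPM per kilobase in adult recipients, 32.5 ± 1.12 in adult controls, 35.5 ± 2.12 in neonatal recipients and 34.03 ± 1.90 in neonatal controls. Igf2bp2 followed in each group, then Igf2bp3, and their ranges overlapped in neonatal controls only. In neonatal hearts Hmga2, Igf2bp1 and Lin28b followed in this order, Hmga2 and Igf2bp1 with overlapping ranges. In adult hearts these 3 genes lay at 0.155 to 0.214 CPM per kilobase on average, and neighbours in their order overlapped.

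**Figure D2:**
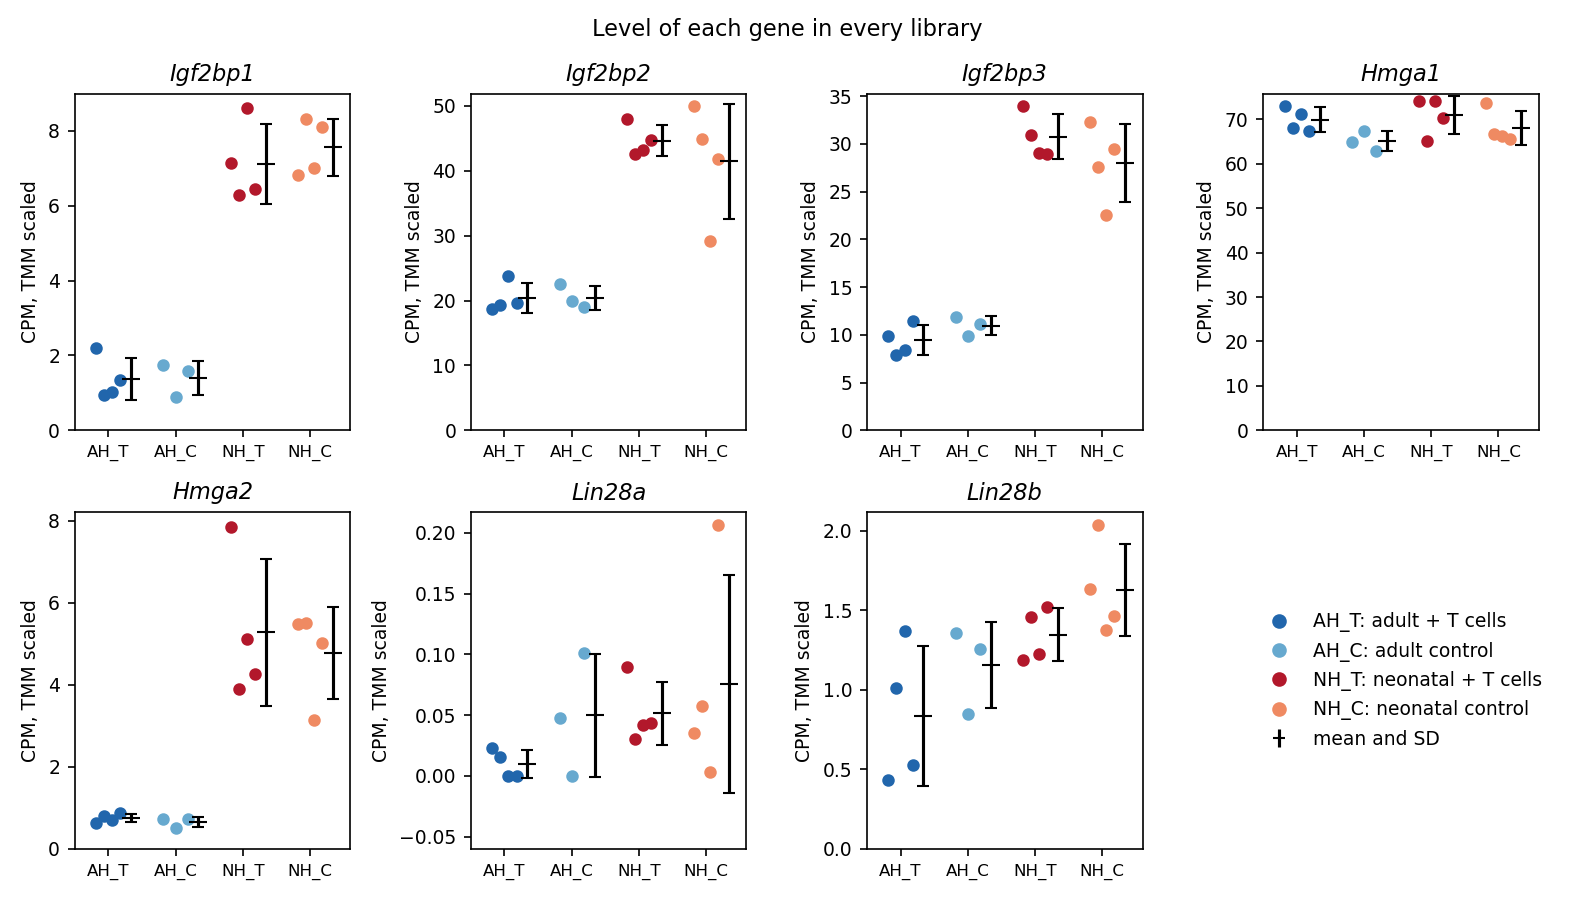
TMM-scaled CPM of each member in every library. Each point is 1 library, and the bar to its right gives the mean and SD of the group. Igf2bp1, Igf2bp2, Igf2bp3 and Hmga2 lie lower in all 7 adult libraries than in any of the 8 neonatal libraries. The share of all genes tested that separate in this way was not counted. Hmga1 lies between 62.9 and 74.2 CPM throughout, and Lin28a is near 0 in all groups.

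The comparison of adult with neonatal hearts asks which members differ with the age of the infarcted heart. Because the time after infarction in adult hearts and the batches are not stated, age cannot be told apart from either. It was made in controls and, separately, in T cell recipients. These 2 comparisons share no library, though 1 fit supplies the spread for both. In both, 4 of 6 tested members were lower in adult hearts: Igf2bp1, Igf2bp2, Igf2bp3 and Hmga2. Hmga1 and Lin28b passed the threshold in neither. Among all genes tested, 15.4% were lower in adult controls and 15.6% higher, and 26.9% were lower in adult recipients and 23.8% higher. Fold changes with age are given as neonatal over adult, so a positive value means lower in the adult.

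Igf2bp1 encodes the family member also called IMP1, which binds transcripts such as Myc and Actb (gene ID 140486, chromosome 11, 95957163 to 96005944, minus strand, GRCm38.p6). Adult recipients 1 to 4 had 2.19, 0.942, 1.01 and 1.35 CPM, and adult controls 5 to 7 had 1.74, 0.888 and 1.58. Neonatal recipients 1, 2, 4 and 5 had 7.13, 6.28, 8.61 and 6.45 CPM, and neonatal controls 6 to 9 had 6.82, 8.30, 7.01 and 8.11. The highest adult library was well under the lowest neonatal one. The log2 fold change of neonatal over adult was 2.36 ± 0.23 in recipients (edgeR, adjusted p = 3.95e-07) and 2.41 ± 0.25 in controls (adjusted p = 2.65e-06). As a ratio, the level in neonatal controls was 5.33 times that in adult controls (95% interval 3.70 to 7.68).

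Igf2bp2, also called IMP2, is the family member with a known metabolic role in adult tissues (gene ID 319765, chromosome 16, 22059009 to 22163299, minus strand). Adult recipients had 18.6, 19.4, 23.8 and 19.6 CPM and adult controls 22.5, 19.9 and 18.95. Neonatal recipients had 47.9, 42.6, 43.3 and 44.8 CPM, and neonatal controls had 49.9, 45.0, 29.2 and 41.8. The groups did not overlap, although neonatal control 8, at 29.2 CPM, came nearest to the adult libraries. Neonatal over adult gave 1.14 ± 0.13 in recipients (edgeR, adjusted p = 1.64e-06) and 1.02 ± 0.14 in controls (adjusted p = 4.02e-05), or 2.197 and 2.03 times. Of the 4 members that differed with age, Igf2bp2 had the smallest fold change in both comparisons, and it kept the highest adult level of the 4.

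Igf2bp3, or IMP3, is the family member most often described as silent in adult tissue and reactivated in tumours (gene ID 140488, chromosome 6, 49085218 to 49215469, minus strand). Adult recipients had 9.84, 7.91, 8.46 and 11.4 CPM, and adult controls had 11.8, 9.87 and 11.1. Neonatal recipients had 33.98, 31.0, 29.1 and 28.9 CPM, and neonatal controls had 32.3, 27.6, 22.5 and 29.5. All adult libraries thus held Igf2bp3 reads, at a level of 2.17 ± 0.361 CPM per kilobase in recipients and 2.52 ± 0.228 in controls, above that of Igf2bp1 and Hmga2 in the same hearts. Neonatal over adult gave 1.70 ± 0.12 in recipients (edgeR, adjusted p = 1.57e-08) and 1.35 ± 0.13 in controls (adjusted p = 1.32e-06). The gene overlaps Malsu1, a mitochondrial ribosome assembly factor on the opposite strand, over 53927 bases, and whether reads were counted by strand is not stated. Malsu1 itself stood at 20.8 ± 2.16 CPM in adult recipients, 19.01 ± 0.442 in adult controls, 17.8 ± 1.41 in neonatal recipients and 17.9 ± 1.47 in neonatal controls. It was higher in adult recipients (-0.23 ± 0.089, edgeR, adjusted p = 0.0384), opposite to Igf2bp3, and did not pass in controls.

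Hmga2 encodes the HMGA protein of embryonic and stem cells and is the best-known let-7 target (gene ID 15364, chromosome 10, 120361268 to 120476469, minus strand). Adult recipients had 0.638, 0.801, 0.709 and 0.865 CPM and adult controls 0.720, 0.508 and 0.720, which are 12 to 23 counts per library. Neonatal recipients had 7.84, 3.89, 5.11 and 4.26 CPM, and neonatal controls had 5.48, 5.51, 3.14 and 5.01. Every adult library was below 1 CPM and every neonatal library above 3 CPM, with neonatal recipient 1 the highest. Neonatal over adult gave 2.81 ± 0.26 in recipients (edgeR, adjusted p = 2.53e-07) and 2.86 ± 0.29 in controls (adjusted p = 2.41e-06), the largest point estimates among the members. Without neonatal control 8 the fold changes of neonatal over adult controls were 2.45 for Igf2bp1, 1.15 for Igf2bp2, 1.44 for Igf2bp3 and 3.02 for Hmga2, with the largest adjusted p at 1.87e-06. The interval for controls, 4.74 to 11.1 times, overlapped that of Igf2bp1, and the difference between the genes was not tested. Several noncoding genes lie within Hmga2 on the opposite strand, of which 1700006J14Rik was tested. It had 106 counts over all libraries, against 609 for Hmga2 in the neonatal recipients alone, and its own log2 fold change was 2.15 in recipients (adjusted p = 0.00530) and 1.55 in controls (adjusted p = 0.0764).

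Hmga1, the HMGA gene that many adult tissues express, did not differ detectably with age (gene ID 15361, chromosome 17, 27556574 to 27563672, plus strand). Adult recipients had 73.1, 68.1, 71.3 and 67.3 CPM and adult controls 64.9, 67.4 and 62.9. Neonatal recipients had 74.2, 65.2, 74.1 and 70.4 CPM, and neonatal controls had 73.8, 66.7, 66.2 and 65.7. All groups overlapped. Neonatal over adult gave 0.02 ± 0.062 in recipients (edgeR, adjusted p = 0.805) and 0.07 ± 0.067 in controls (adjusted p = 0.492). The 95% interval in controls, 0.949 to 1.15 times, is narrow beside the values of Hmga2. A near-identical copy, Hmga1b, had 42.05 ± 2.34, 38.8 ± 1.47, 41.7 ± 2.48 and 40.4 ± 3.18 CPM in adult recipients, adult controls, neonatal recipients and neonatal controls. Reads may be shared between the copies, so the level of Hmga1 is uncertain. Hmga1b did not pass the threshold with age either. Without neonatal control 8, Hmga1 had 0.08 in controls (adjusted p = 0.419).

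Lin28a and Lin28b, the inhibitors of let-7 maturation, differed in level: Lin28a was near the limit of detection, while Lin28b was above the floor in every library. Lin28a (gene ID 83557, chromosome 4, 134003330 to 134019196, minus strand) had at most 5.5 counts in any library. It was at 0 in 3 adult libraries, and it reached the floor of 3 counts only in neonatal recipient 1 and neonatal control 9, with 3 and 5.5 counts. No fold is given for it. Lin28b (gene ID 380669, chromosome 10, 45376617 to 45486314, minus strand) had 0.433, 1.01, 1.37 and 0.526 CPM in adult recipients and 1.36, 0.846 and 1.26 in adult controls. Neonatal recipients had 1.19, 1.46, 1.22 and 1.52 CPM, and neonatal controls had 1.63, 2.04, 1.38 and 1.46. The controls did not overlap, by a margin smaller than the spread within either group, while adult recipient 3 lay among the neonatal recipients. Neonatal over adult gave 0.69 ± 0.30 in recipients (edgeR, adjusted p = 0.0615) and 0.49 ± 0.30 in controls (adjusted p = 0.232), or 0.57 without neonatal control 8 (adjusted p = 0.186). Without adult recipient 3 the value in recipients was 1.01 (adjusted p = 0.00981), past the threshold.

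**Figure D3:**
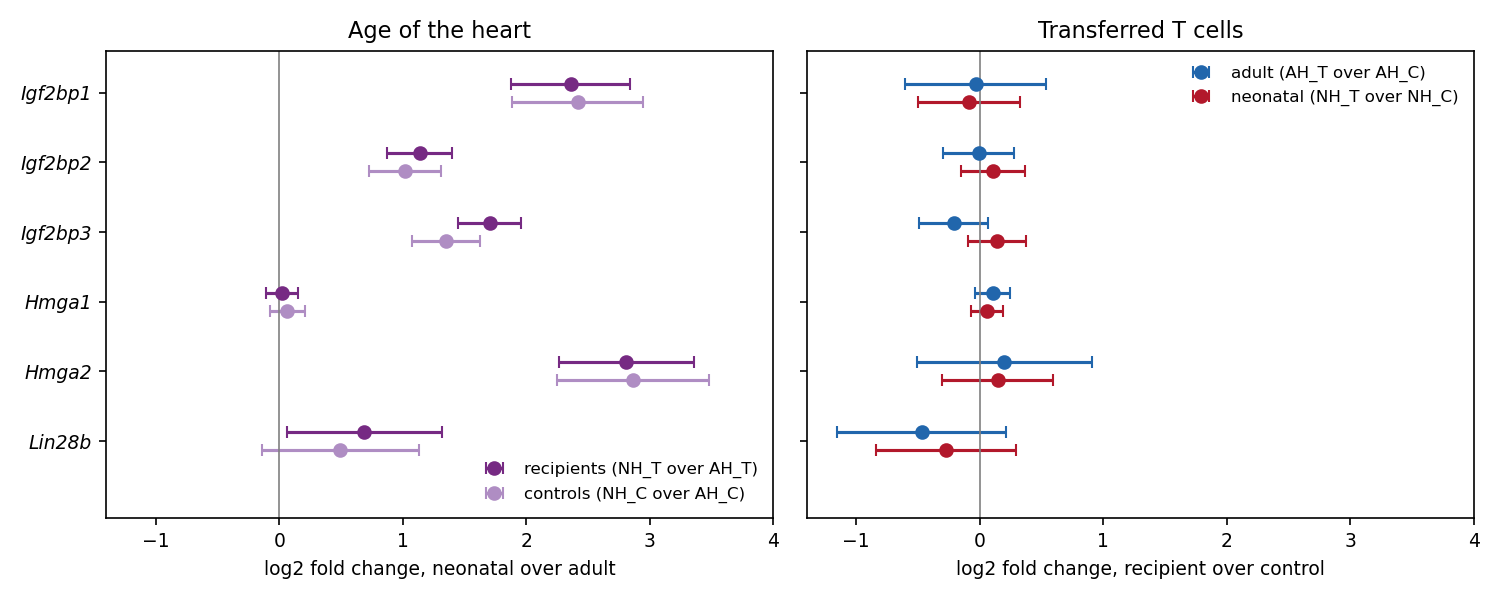
Log2 fold changes with 95% intervals from the fit over all libraries. The left panel gives neonatal over adult hearts, in recipients above controls, and the right panel gives T cell recipients over controls, in adult above neonatal hearts. With age, 4 members lie between 1.02 and 2.86 and Hmga1 lies at 0.02 and 0.07. With T cells every interval includes 0.

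Ratios within a library compare members of a family without any scaling between libraries. These ratios were chosen after the values of the members had been seen to separate by age, so they are given as a description. Exact permutation tests over libraries were run, 12 in all. With so few libraries none of them could have passed after Benjamini-Hochberg adjustment, even at the smallest possible unadjusted p. No conclusion is drawn from their outcome. With age, each of the 3 ratios had an adjusted p of 0.114. The unadjusted p was the smallest possible for so few libraries, 0.0286 in recipients and 0.0571 in controls. Igf2bp1 relative to Igf2bp2 was 0.0694 ± 0.0339 in adult recipients against 0.160 ± 0.0262 in neonatal recipients, and 0.0684 ± 0.0209 in adult controls against 0.189 ± 0.0424 in neonatal controls. Igf2bp3 relative to Igf2bp2 was 0.469 ± 0.105 in adult recipients against 0.689 ± 0.0366 in neonatal recipients, and 0.536 ± 0.0466 in adult controls against 0.684 ± 0.0697 in neonatal controls. Hmga2 relative to Hmga1 was 0.0108 ± 0.00184 in adult recipients against 0.0737 ± 0.0217 in neonatal recipients, and 0.0100 ± 0.00216 in adult controls against 0.0701 ± 0.0156 in neonatal controls. In none of these 6 comparisons did the libraries of the 2 ages overlap. The share of other gene pairs that separate in this way was not counted. As shares of the family per kilobase, Igf2bp2 made up 63.8% ± 5.45 in adult recipients, 60.6% ± 2.33 in adult controls, 53.2% ± 1.18 in neonatal recipients and 53.0% ± 2.75 in neonatal controls. Igf2bp1 made up 2.56% ± 1.09, 2.44% ± 0.676, 5.03% ± 0.813 and 5.87% ± 1.06 in the same groups.

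**Figure D4:**
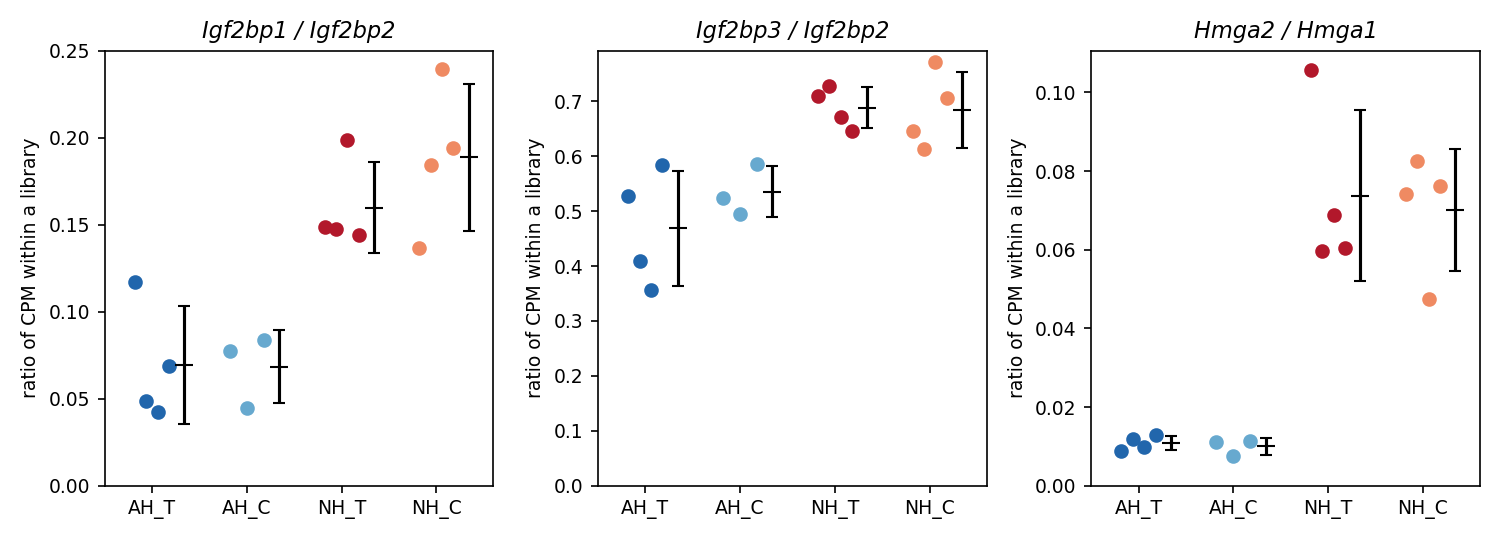
Ratio of CPM between family members within each library, with group means and SDs. All 3 ratios lie lower in the adult libraries than in the neonatal ones. The ratio of Hmga2 to Hmga1 averages 0.0108 in adult and 0.0737 in neonatal recipients.

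The comparison of T cell recipients with controls asks whether transferred adult T cells altered the infarcted ventricle. None of the 6 tested members passed the threshold at either age. In adult hearts, 8.55% of all genes tested were called, and the members had log2 fold changes of recipients over controls from -0.47 ± 0.33 for Lin28b (edgeR, adjusted p = 0.377) to 0.20 ± 0.34 for Hmga2 (adjusted p = 0.754). Igf2bp3 had -0.21 ± 0.13 (adjusted p = 0.323), with 9.41 ± 1.57 CPM in recipients and 10.9 ± 0.989 in controls. In neonatal hearts 0% of genes were called (513 at an unadjusted p under 0.05, and 0 by DESeq2), and the members lay between -0.27 ± 0.27 for Lin28b and 0.15 ± 0.21 for Hmga2, all with an adjusted p of 0.999. Without neonatal control 8 they lay between -0.36 for Lin28b and 0.04 for Igf2bp3 and Hmga1, and Igf2bp2 (-0.037) and Hmga2 (-0.02) turned sign. These intervals bound the effects unequally. For Hmga1 they ran from 0.974 to 1.19 times in adult and from 0.952 to 1.14 times in neonatal hearts. For Hmga2 they ran from 0.702 to 1.87 times in adult and from 0.810 to 1.51 times in neonatal hearts, so a change of 1.5 times could have been missed in either age.

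The difference between the T cell effects of the 2 ages was tested as an interaction. It called 0% of genes (2511 at an unadjusted p under 0.05, and 69 by DESeq2). Igf2bp3 came nearest among the members, with an effect of -0.21 in adult and 0.14 in neonatal hearts and a difference, neonatal minus adult, of 0.35 ± 0.18 (edgeR, unadjusted p = 0.0600, adjusted p = 0.346). For Igf2bp1, Igf2bp2, Hmga1, Hmga2 and Lin28b the difference lay between -0.06 and 0.20, and none of them passed by either tool. T cell markers (Cd3d, Cd3e, Cd3g, Cd4, Cd8a) summed to 2.26 to 4.19 CPM in adult recipients, 1.42 to 2.11 in adult controls, 1.12 to 2.01 in neonatal recipients and 1.01 to 2.09 in neonatal controls.

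Other genes of the pathways were read from lists chosen with earlier results of these data known, and are given as counts and medians only. Over all genes tested, the median log2 fold change of neonatal over adult was 0.03 in recipients and 0.02 in controls. Of all those genes, 26.9% were lower in adult recipients and 23.8% higher, and 15.4% were lower in adult controls and 15.6% higher. In the list of let-7 processing and control, 14 of 15 genes were tested. In recipients 7 were lower in adult hearts and 1 higher (median 0.18), and in controls 1 was lower (median 0.09). That gene was Hnrnpa1, an RNA-binding protein that processes specific microRNA precursors, with 144.6 ± 6.05 CPM in adult recipients, 147 ± 3.36 in adult controls, 221 ± 10.6 in neonatal recipients and 221 ± 7.44 in neonatal controls. Ago2, the slicer argonaute that carries microRNAs, had 18.03 ± 3.14 CPM in adult recipients and 59.9 ± 17.2 in neonatal recipients (edgeR, adjusted p = 6.07e-05), and 34.3 ± 8.35 in adult controls and 55.4 ± 14.4 in neonatal controls (adjusted p = 0.0523). Dicer1, which cuts microRNA precursors, and the uridylyltransferase genes Tut4 and Tut7 were lower in adult recipients (0.33, 0.45 and 0.22, edgeR, adjusted p = 0.00246, 0.00239 and 0.00378), and none of them passed in controls. The 1 gene of this list that was higher in adult recipients was Tarbp2 (-0.37, edgeR, adjusted p = 0.000942), which did not pass in controls (-0.07, adjusted p = 0.549). Drosha and Xpo5 passed in neither.

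Of 21 known let-7 targets outside the members, 11 were lower in adult recipients and 5 higher (median 0.32), and 7 were lower in adult controls and 4 higher (median 0.18). The list thus moved in both directions. Igf1r, the receptor for insulin-like growth factors, was lower in adult hearts, with 38.1 ± 2.99 CPM in adult recipients and 74.9 ± 6.41 in neonatal recipients (log2 fold change of neonatal over adult 0.98, edgeR, adjusted p = 3.94e-07). In controls it had 42.8 ± 3.79 CPM in adults and 73.3 ± 9.49 in neonates (0.78, adjusted p = 2.84e-05). Ccnd2, a D-type cyclin, was higher in adult hearts, with 319.9 ± 19.2 CPM in adult controls and 199 ± 12.5 in neonatal controls (-0.68, adjusted p = 1.02e-05).

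Transcripts that IGF2BP proteins are known to bind also split. Of 7, 4 were lower in adult recipients and 1 higher (median 0.43), and 3 were lower in adult controls and 1 higher (median 0.43). Igf2, the growth factor after which the family is named, had 823 ± 85.1 CPM in adult recipients, 760 ± 34.1 in adult controls, 1178 ± 49.7 in neonatal recipients and 1221 ± 125.2 in neonatal controls. H19, the imprinted noncoding RNA beside it, had 854 ± 56.1, 830.2 ± 103.8, 1809 ± 89.5 and 1782 ± 109.9 CPM in the same groups. Mapt, which encodes the microtubule protein tau, ran the other way, with 35.0 ± 8.40, 33.6 ± 1.74, 4.04 ± 0.490 and 3.72 ± 0.211 CPM. Its log2 fold change of neonatal over adult was -3.12 in recipients (edgeR, adjusted p = 7.45e-11) and -3.17 in controls (adjusted p = 1.21e-10).

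Of 8 proteins that associate with IGF2BP complexes, 5 were lower in adult hearts and 1 higher in both comparisons (medians 0.37 in recipients and 0.32 in controls). The 5 were Hnrnpu, Syncrip, Dhx9, Pabpc1 and Fmr1, all RNA-binding, and the 1 higher was Ybx1, a cold-shock domain protein. Hnrnpu, a core member of the complex that stabilises Myc mRNA, had 240.4 ± 4.34 CPM in adult recipients, 248.5 ± 6.199 in adult controls, 312 ± 9.43 in neonatal recipients and 320.5 ± 2.57 in neonatal controls. Of 12 m6A writers, erasers and readers, 7 were lower in adult recipients and 1 higher (median 0.25), against 3 lower and 0 higher in controls (median 0.18). Rbm15, an adaptor of the m6A writer complex, was among them in both comparisons (0.51 in recipients, adjusted p = 0.000217, and 0.45 in controls, adjusted p = 0.00261, both edgeR). Mettl3, the catalytic writer, was at 15.5 ± 1.20 CPM in adult recipients, 14.95 ± 0.767 in adult controls, 15.1 ± 0.737 in neonatal recipients and 13.3 ± 0.354 in neonatal controls.

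Of 7 other high-mobility group genes, 1 was lower in adult recipients and 1 higher (median 0.15), and 3 were lower in adult controls and 0 higher (median 0.25). Hmgn1, a nucleosome-binding protein, was lower in both, with log2 fold changes of 0.34 (edgeR, adjusted p = 0.00244) in recipients and 0.49 (adjusted p = 0.000616) in controls. Of 12 juvenile growth genes, a set known to be switched off after birth in several organs, 9 were lower in adult recipients and 1 higher (median 0.49), and 7 were lower in adult controls and 1 higher (median 0.52). Plagl1, an imprinted zinc-finger transcription factor, had 58.1 ± 4.00 CPM in adult recipients, 74.5 ± 2.52 in adult controls, 178 ± 21.6 in neonatal recipients and 175 ± 21.9 in neonatal controls. Grb10, an imprinted adaptor of insulin and growth factor receptors, had 297 ± 30.4, 316 ± 11.02, 585 ± 43.3 and 563 ± 37.5 CPM in the same groups. Igf2, H19 and Mycn each stand in 2 lists, the last being higher in adult hearts, and Myc stands in both the target and the bound list. Without neonatal control 8, an alternative chosen after seeing the data, the counts in controls became 8 lower and 4 higher for let-7 targets, 4 lower for m6A genes, 5 lower and 1 higher for bound transcripts, 2 lower for other high-mobility group genes and 6 lower and 1 higher for juvenile growth genes. Those of the let-7 processing and partner lists stayed at 1 lower, and at 5 lower and 1 higher.

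With T cells, 0 genes of these lists were called in neonatal hearts. In adult hearts, 826 of all 16437 genes tested were lower in recipients and 580 higher. In adult hearts 2 genes of the let-7 processing list fell in recipients, Ago2 (log2 fold change -0.93, edgeR, adjusted p = 0.0431) and Tut7 (-0.23, adjusted p = 0.0323). Tut7 adds uridine to let-7 precursors. Tgfbr1, a let-7 target and receptor for TGF-β, fell by 0.42 (adjusted p = 0.0326), and Plagl1 fell by 0.36 (adjusted p = 0.0386). Of the m6A list, 3 genes fell: Ythdf3 by 0.46 (adjusted p = 0.0206), Ythdc2 by 0.40 (adjusted p = 0.0377) and Ythdc1 by 0.27 (adjusted p = 0.0386), all edgeR. These are readers, but the readers Ythdf1 (0.01, edgeR, adjusted p = 0.955) and Ythdf2 (0.11, adjusted p = 0.317) did not pass. Without adult recipient 4, adult control 5 or adult control 6, the number of genes called in adult hearts over all genes tested was 0 each time, as it was with a trend on transcript length removed.

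The gene whose centred log2 CPM ran closest to that of each member across the 15 libraries was named from 13116 genes by the root mean square difference. For Igf2bp1 it was Peg10, an imprinted gene derived from a retrotransposon (0.37 log2 units), with 3.26 ± 0.523 CPM in adult recipients, 4.36 ± 0.730 in adult controls, 17.6 ± 1.70 in neonatal recipients and 16.0 ± 3.47 in neonatal controls. For Igf2bp2 it was Tpd52 (0.10), for Igf2bp3 Arhgap19, a GTPase-activating protein of dividing cells (0.16), for Hmga2 Car13, a carbonic anhydrase (0.28), and for Lin28b Map3k8, a MAP kinase kinase kinase (0.24). For Hmga1 it was its copy Hmga1b (0.04), whose reads may be shared with it.

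Summed levels of cell type markers differed with age beside these genes. In bulk tissue, fewer cells of a type and less RNA per cell cannot be told apart. Markers of cycling cells (Mki67, Top2a, Ccnb1, Cdk1, Aurkb) summed to 248 to 309 CPM in adult recipients, 269 to 337 in adult controls, 393 to 432 in neonatal recipients and 401 to 484 in neonatal controls. Macrophage markers summed to 123 to 176, 131 to 182, 420.5 to 646 and 149 to 479 CPM in the same groups. Endothelial markers summed to 1101 to 1301, 1145 to 1170 (1170.4 at the highest), 784 to 891 and 816 to 886 CPM, and erythroid markers to 2939 to 4190.2, 2290.5 to 2435, 935 to 1622 and 639 to 1791 CPM. Summed fibroblast markers overlapped between the ages, at 2030 to 3257 CPM in adult recipients, 1626 to 2958 in adult controls, 3092 to 3477 in neonatal recipients and 1800 to 3634 in neonatal controls. The sum hides opposite changes: of the 5 markers, 1 was lower and 1 higher in adult hearts in each comparison. Dcn was higher (-0.92 in recipients, adjusted p = 2.51e-07, and -0.94 in controls, adjusted p = 1.18e-06, edgeR). The lower one was Pdgfra in recipients (0.41, edgeR, adjusted p = 0.00536) and Tcf21 in controls (0.35, adjusted p = 0.0192). Cardiomyocyte markers summed to 26229 to 28297 CPM in adult recipients, 20792 to 24943 in adult controls, 15987 to 22808 in neonatal recipients and 20755 to 22409 in neonatal controls. Of these 5 markers, 3 were higher in adult recipients and 1 lower, which was Ttn (0.44, edgeR, adjusted p = 0.0211). In controls 0 of them were called. The part of these differences in the levels of the members was not tested.

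Reads on the let-7 genes themselves were few. The rows of 12 let-7 and miR-98 hairpins held at most 12 counts in any library, so no level is drawn from them. Of 5 genes that contain hairpins on their own strand, Lncppara, which holds let-7b and let-7c-2, was higher in adult controls (log2 fold change of neonatal over adult -1.21 ± 0.31, edgeR, adjusted p = 0.00718) and did not pass in recipients (-0.39 ± 0.31, adjusted p = 0.309). Mir100hg, which holds let-7a-2, was lower in adult recipients (0.57 ± 0.18, adjusted p = 0.0138) and did not pass in controls (-0.09 ± 0.19, adjusted p = 0.762). Spaca6 (0.89, adjusted p = 0.00486) and Huwe1 (0.24, adjusted p = 0.0458) were also lower in adult recipients, and neither passed in controls. Wdr82 passed in neither. With T cells in adult hearts, Mir100hg (-0.83, edgeR, adjusted p = 0.0214) and Spaca6 (-0.91, adjusted p = 0.0386) were lower in recipients than in controls. Lncppara, Huwe1 and Wdr82 did not pass in that comparison, and none of the 5 passed with T cells in neonatal hearts. The level of a host gene need not follow that of the mature microRNA. These genes were picked by position after the members' values had been seen.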

How the data were processed

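Polyadenylated left ventricular RNA was captured with oligo-dT and made into 15 stranded libraries, per the labels' protocols. Per the submitters' processing notes, bcl2fastq 2.20.0.422, cutadapt 2.5, STAR 2.7.2b, featureCounts 1.6.4 and DESeq2 1.24.0 were used with GRCm38.p6. The authors deposited 1 table of unscaled expected counts per gene, of which 61.1% of non-zero values are whole. The strand setting and the rule for fractional counts are not given in the sources used here. The deposited length equals the genomic span, so lengths came from the longest GENCODE M21 transcript.

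Counts were rounded. Genes were kept by filterByExpr (minimum count 10, minimum total 15), and 1 coefficient per group was fitted with edgeR 4.0.16 (R 4.3.3; robust quasi-likelihood), two-sided, TMM-scaled, with Benjamini-Hochberg adjustment over 16437 genes at 0.05. The steps were tested on simulated data. DESeq2 1.42.0, RLE scaling, no filter, unrounded counts, only the groups compared, a length trend removed (spline with 5 degrees of freedom), a replicate block and leaving out each library were tried.

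Members and lists were chosen with earlier results of these data known. All members are named, with up to 3 genes per list by smallest p for age in controls and the gene with the smallest p for T cells in adults where it passes. A gene that this rule names is not reported here. Mettl3, Dicer1, Tut4, Tarbp2, Ythdc1, Ythdc2, Dcn, Pdgfra, Tcf21, Ttn and genes named without values were added after their values were seen. Nearest genes follow a fixed measure. Depth was 21871617 to 34302786 counts. The floor of 3 counts covers counting error only.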

Additional observations from a re-analysis of the deposited data

Results flagged for a closer look

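Hmga1 in the neonatal controls was marked because neonatal control 6, at 73.8 CPM, lay far above the other 3 libraries of its group, which had 66.7, 66.2 and 65.7 CPM. The gap, taken as a share of the group's range, exceeded Dixon's 95% critical value. In all, 21 groups of 4 were examined, and chance alone marks about 5% of such groups. The value lies within the range of the neonatal recipients.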

How the results depend on the processing

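The 4 members lower in adult hearts passed in both age comparisons under every alternative run, including each library left out. In recipients, the replicate block also called Lin28b (0.98, adjusted p = 0.0215), giving 5 members, as did leaving out adult recipient 3. With the block, 3791 genes were called in controls and 7608 in recipients, against 5085 and 8339 without it. Deviations of libraries with the same number correlated between -0.08 and 0.31, so the numbers did not pair the libraries, and in 4 of the 6 pairs a library of another number correlated best.

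Over all genes, T cells in neonates gave 0 to 9 calls when 1 library was left out (9 without control 6). In adults the count was 0 with the length trend removed, 2106 by DESeq2, 1804 with only the groups compared, and 0 to 1230.0 with 1 library left out. Besides the 3 libraries that gave 0, omitting recipient 2 gave 464. The difference between ages gave 69 calls by DESeq2. The cause was not tested.

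Values that changed sign belong to members that passed no test in that comparison. With the length trend removed, T cells in adults gave 0.19 for Igf2bp1 and 0.10 for Igf2bp2, and the difference gave -0.0047 for Igf2bp2 and 0.0098 for Hmga1. For Igf2bp2 in adults DESeq2 gave 0.00097 and RLE scaling 0.00065. With 1 library left out, Hmga1 with age in recipients ran from -0.00097 to 0.061. T cell effects ran from -0.12 to 0.27 for Hmga2 and -0.037 to 0.21 for Igf2bp2 in neonates, and from -0.34 to 0.16 for Igf2bp1 and -0.093 to 0.064 for Igf2bp2 in adults. The difference ran from -0.0066 to 0.52 for Lin28b, -0.31 to 0.10 for Hmga2, -0.25 to 0.25 for Igf2bp1 and -0.041 to 0.22 for Igf2bp2. Log2 ratios ran from -0.34 to 0.15 for Igf2bp1 to Igf2bp2 in adults, -0.037 to 0.073 for Igf2bp3 to Igf2bp2 in neonates, and -0.13 to 0.15 in neonates and -0.075 to 0.23 in adults for Hmga2 to Hmga1. Depth limits Lin28a, Lin28b and adult Hmga2. No batch is given in the labels.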

Other observations

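Genes outside the members were also counted by the number of let-7 seed matches in their 3′ UTR, a split chosen after the members had been described. In recipients, the share of genes lower in adult hearts was 28.3% of 12657 genes with 0 matches, 33.1% of 1292 with 1, 42.2% of 154 with 2 and 45.8% of 24 with 3 or more. In controls the shares were 16.6%, 16.5%, 19.5% and 16.7% of the same genes. The shares higher in adult hearts were 25.2%, 20.8%, 12.99% and 8.33% in recipients, and 16.2%, 16.3%, 10.4% and 12.5% in controls. The median 3′ UTR length also differed between these classes, at 1061, 2180, 3523 and 4461.5 bases, and its part in the shares was not tested. No test was run on these shares, which are given as a description.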
